A study of Mus musculus with 14 samples.

Results

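Cytosolic ribosomal protein genes encode the proteins of the 40S and 60S ribosomal subunits, and they were examined in bulk RNA-seq of cultured bone marrow clones with and without Trp53. The genes were taken by name, as the Rpl and Rps genes of the deposited annotation together with Rplp0 to Rplp2 and Rpsa, without names marked as pseudogenes, Rps27l and the Rps6 kinases. This gave 88 of 55427 annotated genes. Of these, 77 encode core proteins (31 of the 40S and 46 of the 60S subunit), 9 are paralogs with names ending in l or l1, and 2 are further copies of Rps3a1 (Rps3a2 and Rps3a3). GENCODE nevertheless annotates 6 of the 88 as processed pseudogenes, namely Rpl32l, Rpl6l, Rps12l1, Rps3a2, Rps3a3 and Rps4l, the last as transcribed. In all, 86 of the 88 were tested, because Rpl10l had a count of 0 in every clone and Rpl3l had at most 2 counts in any clone.

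The 14 libraries came from femoral tdTomato+ marrow cells, each grown as a single clone, in 3 groups. The 5 Fgfr3-WT clones carried Fgfr3-creER and R26R(tdTomato/+), were isolated at P23 and were collected at passage 8. The 5 Fgfr3-p53 cKO (P28) clones and the 4 Fgfr3-p53 cKO (P4M) clones carried Trp53fl/fl in addition, were isolated at P28 or at 4 months of age, and were collected at passage 8 or at passages 6 to 8. Tamoxifen was given at P21, so Cre acted only in cells that expressed Fgfr3-creER around that time. The study's text counts these samples as clones and in another place as mice, and no source used here ties a given clone to a mouse. Clone numbers are running numbers, so p-values measure only the spread between these clones. Fgfr3-WT and cKO libraries carry different submission numbers (1303 and 2963), and their clones were isolated at different ages. Genotype therefore cannot be told apart from submission or from age at isolation. Between P4M and P28 clones, age at isolation, time since tamoxifen and passage range differ together and cannot be told apart.

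Most ribosomal proteins are built into ribosomes in equal numbers, and their mRNAs are among the most abundant of growing cells. Most of these mRNAs begin with a 5′ terminal oligopyrimidine (TOP) tract, through which mTOR and LARP1 set their translation. Ribosomal proteins also reach p53, because RPL5 and RPL11, bound to 5S rRNA, inhibit MDM2 when ribosome assembly is disturbed. Mutations of several of them cause Diamond-Blackfan anemia.

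Windows around pyrimidine runs near the annotated start of 6 members named below are printed. The runs began at 14 (Rpl11), -20 (Rpl5), -8 (Rpl14), -1 (Rps6), 25 (Rps15) and 3 (Rpl22l1) bases from that start. None began exactly at it, so they were not shown to be TOP tracts. The windows were taken from RefSeq (GRCm38.p6) and are written 5′ to 3′ on the strand of the gene. Capitals mark the run of at least 8 pyrimidines that starts with C.
Rpl11 (chr4:136053356-136053385, minus strand): ggaagtCTCCCTCTCTCTTCCTgttctcca
Rpl5 (chr5:107900502-107900531, plus strand): cagccaCTCTTTCTCacgtcgcttgcgtgc
Rpl14 (chr9:120571503-120571532, plus strand): ggcgggCCCTCTCTCTTCTCgctgagcgcc
Rps6 (chr4:86857345-86857374, minus strand): gtcgggCCTCTTTTTCgtgacgcctcccag
Rps15 (chr10:80292450-80292479, plus strand): cccgtaCTTCCTTTTCCgagtaaccgccaa
Rpl22l1 (chr3:28805505-28805534, plus strand): cccgttCTCTTCCCacggctgcagctcaac
A run of this kind lay between 20 bases before and 40 bases after the annotated start in 37 of the 57 core genes found in the table (64.9%), beside 19.6% of the 27025 genes there. A C followed by at least 4 pyrimidines exactly at the start was found in 22.8% of these core genes and 3.01% of all genes. Only the transcribed strand was searched, a match is not a functional site, and Rpl23, Rps19 and Rps2 had no run of the longer kind. With both cKO groups averaged against Fgfr3-WT, Rpl11 and Rps6 of the 6 printed were called higher, and Rps15 and Rpl22l1 were called lower. Rpl5 and Rpl14 were called higher in P4M clones against Fgfr3-WT. The shares of all genes called were 48.8% in the averaged comparison and 45.9% in P4M clones. Members with the largest called differences were among those chosen for printing, so these calls say nothing about the runs.

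Trp53 lay at 49.9 to 68.2 CPM (counts scaled to library size) in Fgfr3-WT clones and at 1.72 to 2.85 CPM in cKO clones. Total counts ranged from 25688946 to 52857424 per clone, and cKO libraries were mostly the deeper ones. Mesenchymal markers, led by Col1a1, summed to 526 to 6479 CPM in Fgfr3-WT clones and to between 17890 and 80560 CPM in cKO clones. Of these 9 genes, 3 were called higher and 1 (Sox9) lower with both cKO groups averaged, beside 23.1% and 25.7% of all genes. Of 9 blood markers, 3 were tested, with Csf1r called higher and 2, among them Cd68, called lower in the same comparison. The Csf1r call was lost in 8 of the 14 fits that each left out a clone. The blood list, led by Lyz2, summed to 17.8 to 131 CPM in Fgfr3-WT, 3.70 to 22.8 CPM in P28 and 5.01 to 8.65 CPM in P4M clones. Itgam, Cd79a and Hbb-bs had no more than 3 counts in any clone. Among 5 endothelial markers, only Kdr, the highest, was tested, and it was called higher with both cKO groups averaged (log2 fold change 4.59). The 5 markers summed to 0.0776 to 0.667 CPM in Fgfr3-WT, 0.4255 to 4.80 CPM in P28 and 2.62 to 12.7 CPM in P4M clones. Cdh5 and Emcn had no more than 3 counts in any clone. All 4 proliferation markers were called higher in cKO clones, with sums of 78.6 to 171 CPM in Fgfr3-WT, 254 to 793 CPM in P28 and 433 to 787 CPM in P4M clones. The part of these in the results below was not tested.

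The summed level of the 88 genes overlapped between the groups. They took 4.96, 2.87, 3.36, 4.60 and 3.38% of counts in Fgfr3-WT clones 1 to 5, 4.35, 5.57, 4.36, 3.44 and 3.73% in P28 clones 1 to 5, and 5.29, 5.11, 4.59 and 5.59% in P4M clones 1 to 4. The highest Fgfr3-WT clone lay within the P4M range, and P4M clones lay closest together. In TPM, a measure that also allows for transcript length, the genes took 12.6 ± 2.54% (SD, n = 5) in Fgfr3-WT, 15.0 ± 2.10% (SD, n = 5) in P28 and 16.6 ± 1.10% (SD, n = 4) in P4M clones. In bulk samples, a shift in the mix of cells and a change of RNA per cell cannot be told apart.

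**Figure D1:**
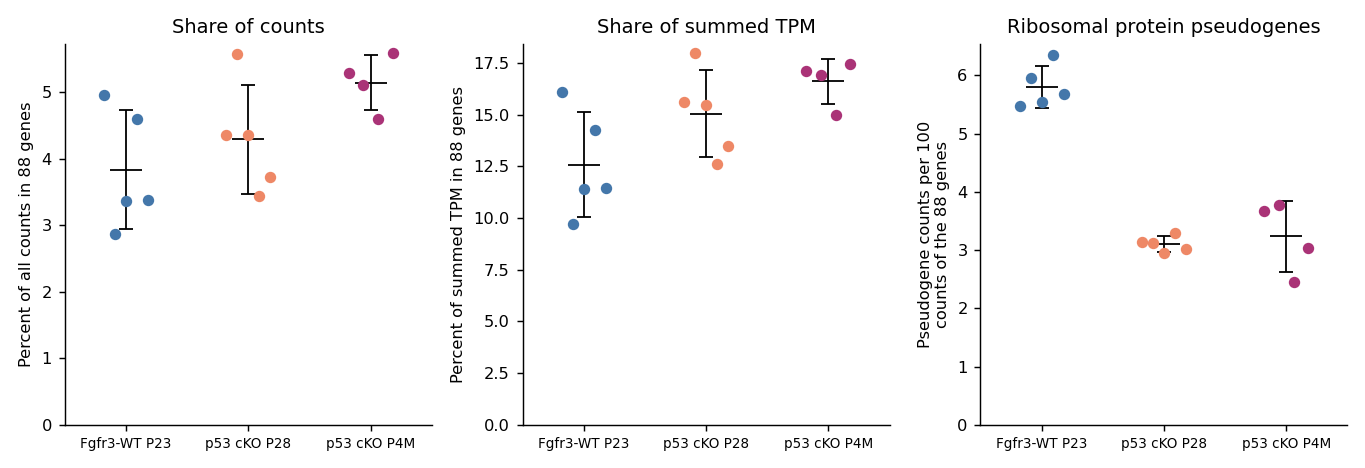
Summed level of the 88 cytosolic ribosomal protein genes per clone, as percent of counts and as percent of summed TPM, and counts in ribosomal protein pseudogenes per 100 counts in the 88 genes. Points are clones, and bars give mean and SD (n = 5, 5 and 4). The groups overlap in both shares, whereas the pseudogene ratio is 5.47 to 6.34 in Fgfr3-WT and 2.45 to 3.77 in cKO clones.

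Reads of these genes are hard to place, because the genome holds many processed copies of them. In a member's transcript, a median of 47.6% of 50-base windows also occurred in a transcript of another gene. The 316 further genes named or described as ribosomal protein pseudogenes took 5.80 ± 0.357 counts (SD, n = 5) per 100 member counts in Fgfr3-WT, 3.10 ± 0.135 (SD, n = 5) in P28 and 3.23 ± 0.614 (SD, n = 4) in P4M clones. All Fgfr3-WT clones lay above all cKO clones, and the part of this in the fold changes below was not tested.

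By TPM, core genes covered a 16.02-fold range of mean level, from Rpl27a at 512 to Rplp1 at 8200 TPM, with a median of 1515 TPM. Rplp1, an acidic protein of the P stalk, was followed by the 40S protein gene Rps12 at 4609 TPM and by Rpl41, which encodes a very short 60S peptide, at 4426 TPM. Paralogs had a median of 9.05 TPM, and the highest was Rpl22l1 at 259 TPM. Genes of the 40S subunit made up 44.6 ± 1.15% (SD, n = 5), 43.9 ± 0.977% (SD, n = 5) and 42.6 ± 0.634% (SD, n = 4) of the members' TPM in the 3 groups.

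For P28 clones against Fgfr3-WT, 12 members were called higher and 7 lower (edgeR quasi-likelihood test, Benjamini-Hochberg adjusted p under 0.05 over 17358 genes). Of all genes tested, 38.9% were called, 19.2% higher and 19.7% lower, so members were called at a lower rate than the background. Core genes had a median log2 fold change of -0.04, beside -0.02 for all genes, and 33 of 77 were above 0. With limma on log2(TPM + 1) the split was 35 higher and 1 lower, and all genes shifted to a median of 0.20. It was 14 higher and 3 lower without scaling, and 13 higher and 18 lower relative to the members' own sum.

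For P4M clones against the same Fgfr3-WT clones, 35 members were called higher and 2 lower, where 45.9% of all genes were called (22.3% higher and 23.6% lower). Core genes had a median log2 fold change of 0.25, beside -0.06 for all genes, and 52 of 77 were above 0. Relative to the members' own sum, which moved the median of all genes to -0.51, the split was 15 higher and 23 lower. With both cKO groups averaged, 26 members were called higher and 7 lower, where 48.8% of all genes were called (23.1% higher and 25.7% lower). That split became 44 higher and 1 lower with limma on log2(TPM + 1), and 16 higher and 29 lower relative to the members' own sum.

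Against Fgfr3-WT, 9 of 31 core 40S genes were called higher and 1 lower in P4M clones, with a median log2 fold change of 0.04. Of 46 core 60S genes, 21 were called higher and 1 lower, with a median of 0.42. In P28 clones the counts were 3 higher and 2 lower for 40S genes, and 7 higher and 4 lower for 60S genes. Of all genes, 22.3% were called higher and 23.6% lower in P4M, and 19.2% and 19.7% in P28 clones. The difference between the subunits was not tested. The 14 core genes on chromosome 7, of which more encode 40S than 60S proteins, had a median of -0.26 in P4M clones. None of them was called higher, whereas the other 63 core genes had a median of 0.47, with 30 called higher. The part of chromosome 7 in the subunit counts was not tested.

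**Figure D2:**
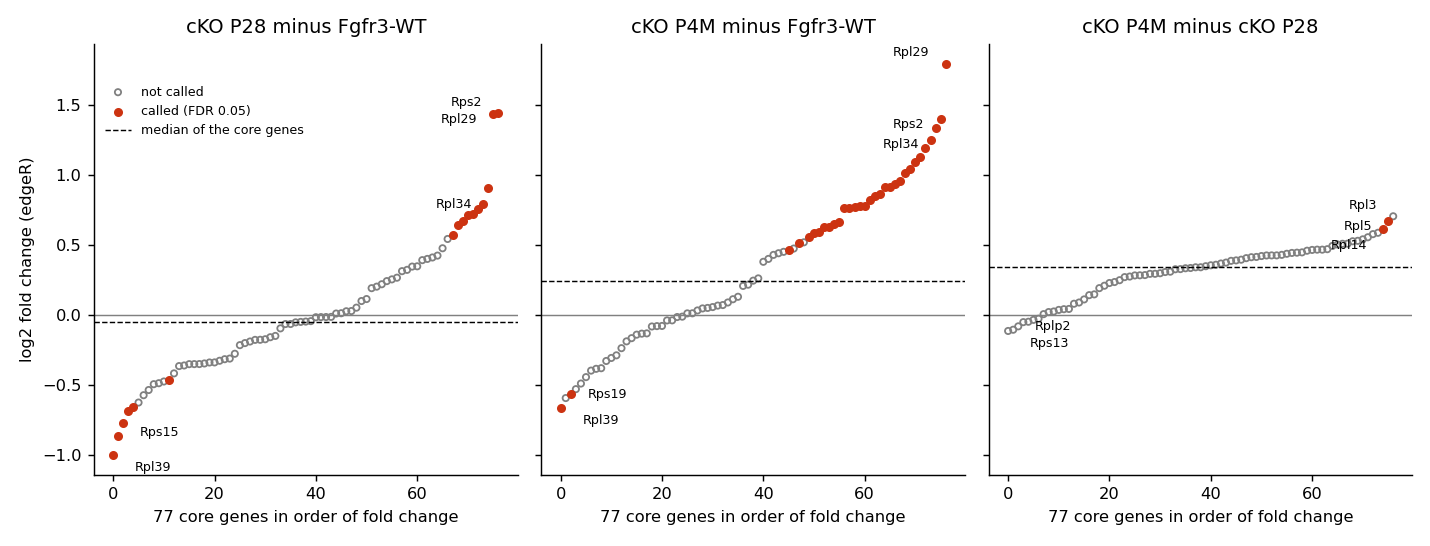
Log2 fold changes (edgeR) of the 77 core genes in 3 comparisons, with filled points for genes called at an adjusted p under 0.05. The core medians are -0.04 for P28 against Fgfr3-WT, 0.25 for P4M against Fgfr3-WT and 0.34 for P4M against P28, and the first 2 comparisons share their Fgfr3-WT clones.

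Rpl29, a 60S protein gene (chromosome 9, 106429454 to 106431568, GRCm38), had the largest difference of the core genes in P4M clones and with both cKO groups averaged, and in P28 clones it came just after Rps2. It lay at 142, 121, 138, 151 and 109 CPM in Fgfr3-WT, at 332, 404, 343, 357 and 358 CPM in P28, and at 452, 473, 392 and 522 CPM in P4M clones. Every cKO clone lay above every Fgfr3-WT clone. The log2 fold change was 1.44 ± 0.125 (SE) in P28 (adjusted p = 1.01e-05, edgeR) and 1.80 ± 0.131 (SE) in P4M clones (adjusted p = 3.38e-06, edgeR), with 47.9% of its windows shared with other genes.

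Rps2, a 40S protein of the mRNA entry region (chromosome 17, 24718116 to 24721929), followed. It had 376, 598, 702, 1253 and 1143 CPM in Fgfr3-WT, 2155, 2931, 2171, 1694 and 2146 CPM in P28, and 2205, 1861, 1863 and 2657 CPM in P4M clones. The genotypes did not overlap, although Fgfr3-WT clones spread widely. The log2 fold change was 1.45 ± 0.289 (SE) in P28 (adjusted p = 0.00183, edgeR) and 1.40 ± 0.301 (SE) in P4M clones (adjusted p = 0.00231, edgeR), with 71.3% of its windows shared.

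Rplp0, the base of the P stalk that recruits elongation factors, had 1725, 1001, 1182, 1619 and 849.8 CPM in Fgfr3-WT, 2244, 2495, 2076, 1977 and 1994 CPM in P28, and 2904, 2871, 2379 and 3002 CPM in P4M clones. All cKO clones lay above all Fgfr3-WT clones, and the log2 fold change with both cKO groups averaged was 0.94 ± 0.175 (SE), with an adjusted p of 0.000701 (edgeR). Its partners in the stalk, Rplp1 and Rplp2, were not called, with log2 fold changes of -0.14 (adjusted p = 0.519, edgeR) and 0.07 (adjusted p = 0.796, edgeR). Rpsa, a 40S surface protein also known as a laminin receptor, had 1369, 821, 863, 1158 and 1145 CPM in Fgfr3-WT, 1777, 2255, 1822, 1708 and 1731 CPM in P28, and 2338, 2113, 1997 and 2711 CPM in P4M clones. It too did not overlap between genotypes, with a log2 fold change of 0.95 ± 0.151 (SE) and an adjusted p of 0.000255 (edgeR).

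In all, 9 of 86 members had every cKO clone above every Fgfr3-WT clone, where 9.73% of all genes did, and for the opposite order the share of all genes was 8.38%. Besides Rpl29, Rps2, Rplp0, Rpsa and the paralog Rpl32l, they were Rps18, Rpl27, Rpl10a and Rpl15, named after their values were seen. Their log2 fold changes with both cKO groups averaged were 0.96, 0.88, 0.82 and 0.80, and all 4 were called higher. For P4M clones alone, 25 members lay wholly above Fgfr3-WT and Rps19 wholly below, where 17.8% and 15.7% of all genes did. For P28 clones alone these were 9 members and Rpl39, beside 13.0% and 11.5% of all genes.

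Rpl39, a short protein in the wall of the peptide exit tunnel (chromosome X, 37082520 to 37085402), was the core gene with the largest difference downwards. It had 237, 231, 219, 500.0 and 447 CPM in Fgfr3-WT, 187, 181, 161, 148 and 141 CPM in P28, and 220.1, 233, 164 and 209 CPM in P4M clones. All P28 clones lay below all Fgfr3-WT clones, whereas P4M clones 1 and 2 lay within the Fgfr3-WT range. This gave -0.998 ± 0.237 (SE) on the log2 scale in P28 (adjusted p = 0.00508, edgeR) and -0.66 ± 0.252 (SE) in P4M clones (adjusted p = 0.0452, edgeR), and in 9 of the 14 fits that each left out a clone, P4M was no longer called.

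Rps15, a 40S protein near the decoding center, had 1228, 442, 586, 1041 and 767 CPM in Fgfr3-WT, 467, 519.8, 428, 413 and 407 CPM in P28, and 605, 655, 581 and 634 CPM in P4M clones. P28 clones lay close together and overlapped only with Fgfr3-WT clone 2. On the log2 scale the difference was -0.86 ± 0.229 (SE) in P28 (adjusted p = 0.00948, edgeR) and -0.39 ± 0.243 (SE) in P4M clones (adjusted p = 0.2, edgeR).

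With both cKO groups averaged, Rps19, the gene most often mutated in Diamond-Blackfan anemia, was called lower (-0.64, adjusted p = 0.0215, edgeR). Rpl36a, a 60S protein (-0.65), Rpl41 (-0.55) and Rps15 (-0.63) were called lower as well. Fgfr3-WT clone 4 had the highest Rps19, Rpl36a and Rpl41 of the Fgfr3-WT clones, as with Rpl39. Without it, the adjusted p was 0.0746 for Rps19, 0.0772 for Rpl36a, 0.129 for Rpl41 and 0.0548 for Rps15 (edgeR), so these 4 calls were lost, and it was 0.0157 for Rpl39, which was kept.

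**Figure D3:**
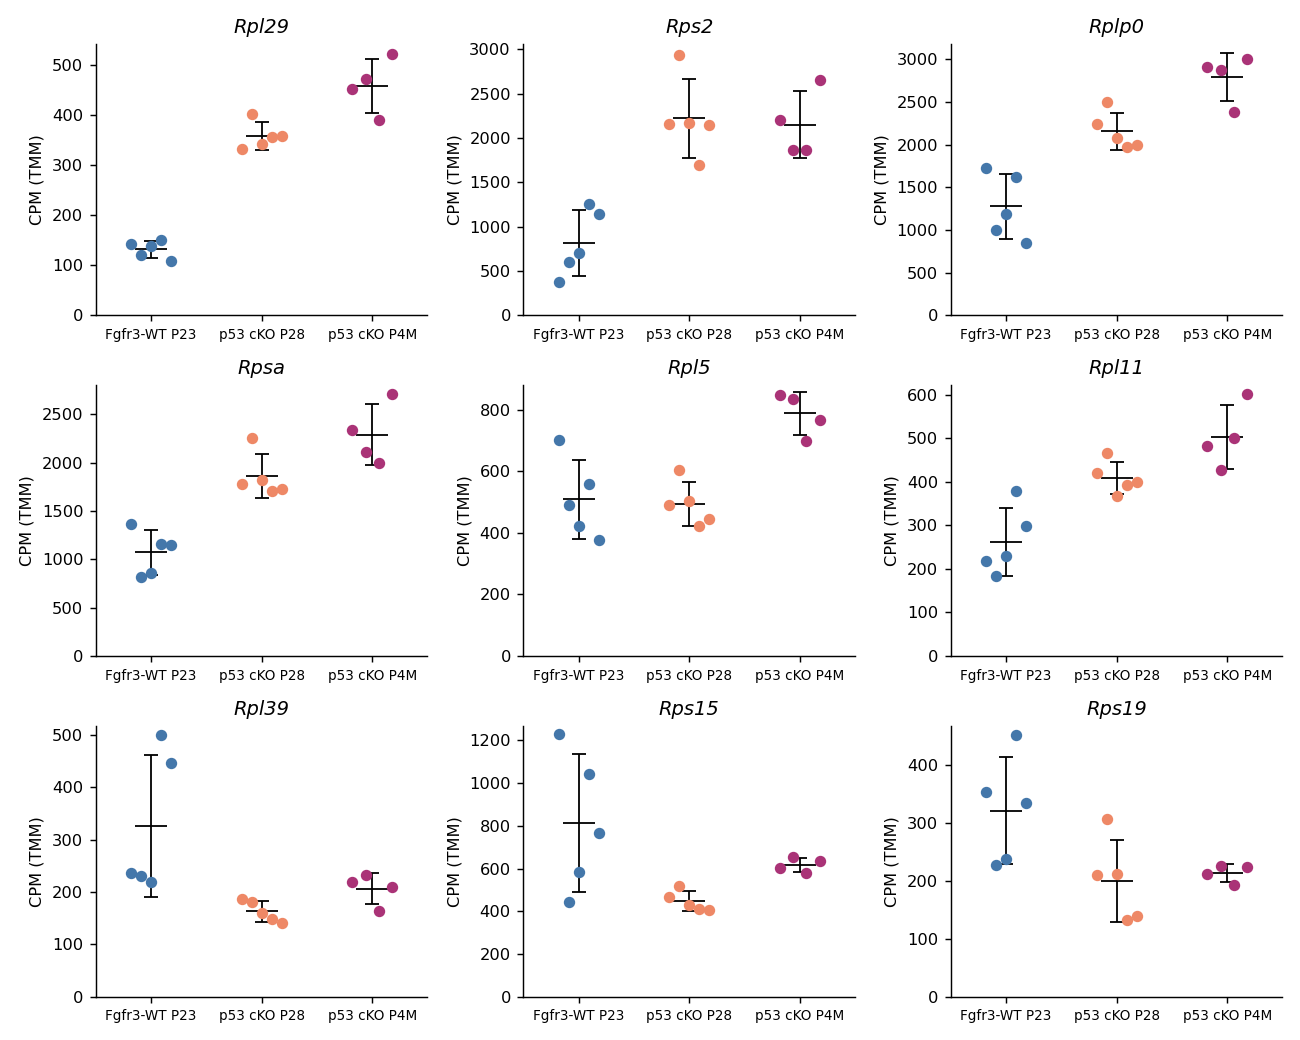
TMM-normalized CPM of named members in each clone, with mean and SD per group (n = 5, 5 and 4). All cKO clones lie above all Fgfr3-WT clones for Rpl29, Rps2, Rplp0 and Rpsa, whereas Fgfr3-WT clone 4 has the highest Rpl39 value, at 500.0 CPM.

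Of 13 members known to bind MDM2, 1 was called higher and 1 lower in P28 clones, and 5 were called higher in P4M clones against Fgfr3-WT. These are smaller shares than the 38.9% and 45.9% of all genes called in the same comparisons. Rpl11 had 219, 184, 230.1, 380.0 and 298 CPM in Fgfr3-WT, 420.1, 467, 369, 394 and 399.5 CPM in P28, and 483, 428, 500.4 and 602 CPM in P4M clones. P28 clone 3 was the only cKO clone within the Fgfr3-WT range. The log2 fold change was 0.64 ± 0.183 (SE) in P28 (adjusted p = 0.0136, edgeR) and 0.94 ± 0.192 (SE) in P4M clones (adjusted p = 0.00166, edgeR).

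Rpl5, the partner of Rpl11 on 5S rRNA, had 703, 489.9, 423, 559.9 and 376 CPM in Fgfr3-WT, 491, 606, 504, 424 and 446 CPM in P28, and 849.6, 837, 700.2 and 768 CPM in P4M clones. P28 clones lay within the Fgfr3-WT range, and 3 of 4 P4M clones lay above it. Its log2 fold change was -0.05 ± 0.169 (SE) in P28 (adjusted p = 0.851, edgeR) and 0.63 ± 0.179 (SE) in P4M clones (adjusted p = 0.0116, edgeR). Other genes share 93.8% of its windows. Of the other named MDM2 binders, Rps7 was called higher in P4M clones (0.85, adjusted p = 0.0256, edgeR), a call lost in 4 of the 14 fits that each left out a clone, whereas Rpl23 and Rpl26 were not called (0.09 and 0.12). Rps6, the substrate of the S6 kinases, had a log2 fold change of 0.33 ± 0.195 (SE) in P28 (adjusted p = 0.204, edgeR) and was called higher in P4M clones, at 0.92 ± 0.206 (SE) (adjusted p = 0.0031, edgeR).

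Between P4M and P28 clones, 2 members were called higher and 1 lower in P4M, where 7.22% of all genes were called (3.34% higher and 3.88% lower). Rpl5 (0.67 ± 0.179 (SE), adjusted p = 0.038, edgeR) and Rpl14, a 60S protein gene (0.62 ± 0.174 (SE), adjusted p = 0.0473, edgeR), were higher, and the paralog Rps4l was lower. Rpl14 lay at 396 to 557 CPM in P28 and 529 to 855 CPM in P4M clones, which overlapped. These calls depend on single clones. No member was called by edgeR without P28 clone 1 or 3 or without P4M clone 1, 2 or 4 (18 to 25 members had an unadjusted p under 0.05), and 12 were called without Fgfr3-WT clone 1. DESeq2 called 14 members, and edgeR on the cKO clones alone called 22, of which 21 were higher.

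The core genes nevertheless lay to one side. Of 77, 70 were above 0 in P4M against P28, with a median log2 fold change of 0.34 and an SD over genes of 0.196, beside a median of -0.01 for all genes. In 16 members every P4M clone lay above every P28 clone, and in 1, Rps4l, every P4M clone lay below, where 9.07% and 9.96% of all genes did. With limma on log2(TPM + 1) the medians were 0.16 for core genes and -0.14 for all genes. The genes share the same clones and scaling and are not independent.

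Core genes differed by chromosome in this comparison. The 14 on chromosome 7 lay between -0.11 and 0.11, with a median log2 fold change of 0.02, whereas 62 of the 63 others were above 0, with a median of 0.39. The 667 other genes measured on chromosome 7 had a median of -0.29, and the 9450 on the remaining chromosomes had 0.06.

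**Figure D4:**
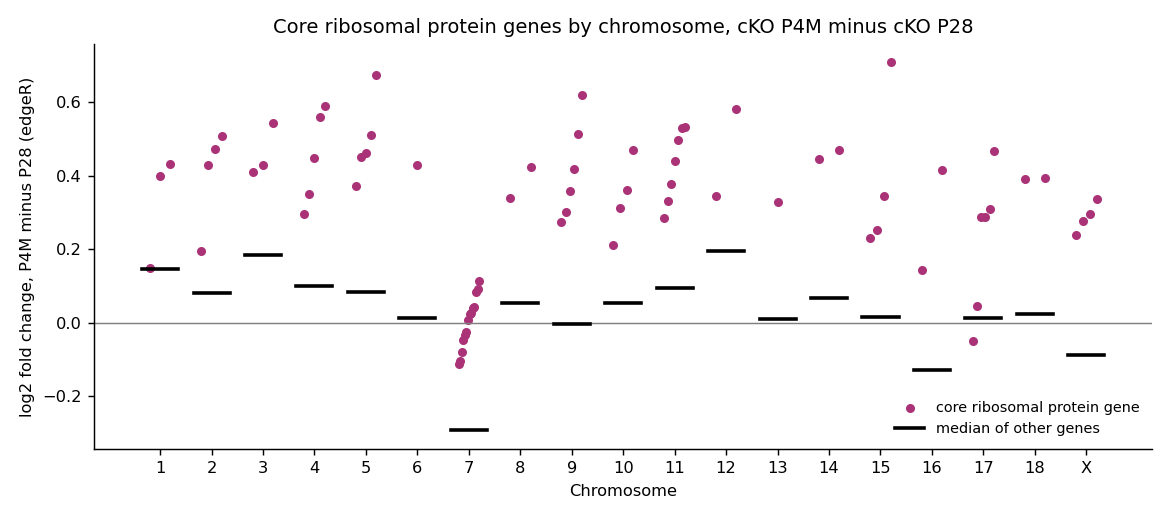
Log2 fold change (edgeR) of each core gene in P4M against P28 clones by chromosome, with bars for the median of the other genes of that chromosome. The 14 core genes of chromosome 7 lie around 0, where the bar is at -0.29.

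Chromosome 7 also differed between clones. Relative to the mean of Fgfr3-WT clones, the median log2 level of its other genes was -0.24, -0.10, -0.20, -0.59 and -0.60 in P28 clones 1 to 5 and -0.69, -0.67, -0.70 and -0.70 in P4M clones 1 to 4, and it lay between -0.08 and 0.14 in Fgfr3-WT clones. The median of its 14 core genes was -0.17, 0.33, -0.14, -0.70 and -0.69 in the P28 clones and -0.25, -0.22, -0.53 and -0.24 in the P4M clones. P28 clones 4 and 5 were lowest in both measures among the P28 clones. Within a clone, Pearson r between the core median and the median of other genes was 0.67 to 0.96 over the 17 chromosomes with at least 2 core genes, points that share the clone, its depth and the Fgfr3-WT baseline.

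With both cKO groups averaged against Fgfr3-WT, 12 of 14 core genes on chromosome 7 were below 0, and Rps19 was among those called lower. All 4 on chromosome X (Rpl10, Rpl36a, Rpl39 and Rps4x) were below 0, and Rpl36a and Rpl39 were called lower. The other genes of these chromosomes had medians of -0.48 and -0.45. On chromosome X, Fgfr3-WT clone 1 stood apart, with a median log2 level of its other genes of -1.11 relative to the Fgfr3-WT mean, beside 0.35, 0.03, 0.44 and 0.27 in Fgfr3-WT clones 2 to 5 and -0.56 to -0.17 in cKO clones. On the remaining chromosomes, 43 of 59 core genes were above 0, with 22 called higher and 2 lower, beside 23.1% and 25.7% of all genes. When the median of the other genes of each chromosome was taken off, a step chosen after seeing the data, the SD of the core log2 fold changes went from 0.196 to 0.125 in P4M against P28, and 76 of 77 were above 0. Copy number was not measured, and its part was not tested.

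Among the paralogs, some were on in single clones and off in others of the same group. Rps4l, a copy of Rps4x (chromosome 6, 148354656 to 148355598), had 0, 0.0383, 0, 3.61 and 0.0792 CPM in Fgfr3-WT, 44.8, 0.0956, 9.94, 0.363 and 49.8 CPM in P28, and 0, 0, 0 and 0.0376 CPM in P4M clones. It was high in P28 clones 1, 3 and 5, and next highest in Fgfr3-WT clone 4. Summed over clones, 4546 counts in P28 stood against 2 in P4M, a ratio of 1911 after scaling to depth (95% exact interval 529 to 15780, counting error only). The adjusted p was 0.0435 for P28 against Fgfr3-WT and 0.0333 for P4M against P28 (edgeR), calls that were lost in 11 and 6 of 14 fits without 1 clone.

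Rpl39l, a copy of Rpl39 known from male germ cells (chromosome 16, 10170226 to 10174911), had 0, 22.5, 0, 48.1 and 0 CPM in Fgfr3-WT, 0, 0.0478, 0, 0 and 34.1 CPM in P28, and 23.0, 0.0455, 0 and 22.7 CPM in P4M clones. High and near-absent clones occurred in every group, and it was not called. It shares no 50-base window with another gene.

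Rps12l1, a copy of Rps12 (chromosome 7, 56014016 to 56014414), had a count of 0 in all Fgfr3-WT clones, 0, 2.34, 0, 2.56 and 0 CPM in P28, and 0, 1.91, 3.12 and 2.69 CPM in P4M clones. Against a floor of 3 counts over the Fgfr3-WT group it was at least 46.9-fold higher in P28 and at least 95.4-fold higher in P4M clones, for counting error only. The adjusted p was 0.0566 in P28 and 0.0328 in P4M clones (edgeR), and 5 of the 14 fits that each left out a clone no longer called it in P4M. All of its windows also occur in other transcripts, so the counts cannot be assigned to it with certainty.

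Rpl32l, a copy of Rpl32, lay at 0.119 to 0.326 CPM in Fgfr3-WT, 0.487 to 1.05 CPM in P28, and 0.632 to 1.48 CPM in P4M clones. It was low throughout, with 3 to 65 counts per clone, but the genotypes did not overlap. The log2 fold change was 1.85 ± 0.324 (SE) with both cKO groups averaged (adjusted p = 0.000474, edgeR), whereas Rpl32 was not called (0.23).

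Rpl22l1, which can take the place of Rpl22 in ribosomes, had 95.8, 83.1, 75.5, 63.9 and 51.0 CPM in Fgfr3-WT, 48.8, 47.4, 60.5, 23.6 and 19.7 CPM in P28, and 42.3, 50, 42.3 and 59.3 CPM in P4M clones. The groups overlapped. It was called lower in P28 (-0.88 ± 0.286 (SE), adjusted p = 0.0258, edgeR) and not in P4M clones (-0.61, adjusted p = 0.119, edgeR). Rpl22 was called higher in P4M clones (0.59, adjusted p = 0.0156, edgeR). Rpl7l1, a ribosome assembly factor, was called higher with both cKO groups averaged (0.32, adjusted p = 0.019, edgeR), and Rpl6l, at 1.27 to 2.88 CPM, was not called.

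**Figure D5:**
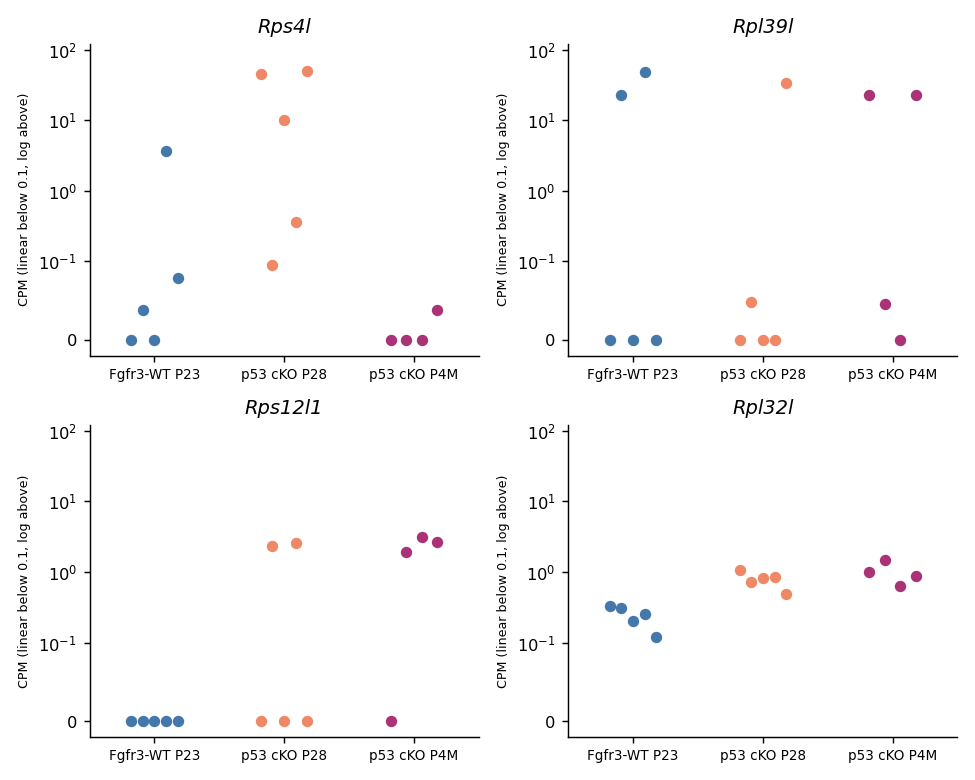
CPM of paralogs in each clone. Rps4l, Rpl39l and Rps12l1 are near 0 in some clones and well above it in others of the same group, whereas Rpl32l separates cKO clones (0.487 to 1.48 CPM) from Fgfr3-WT clones (0.119 to 0.326 CPM).

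Of the ribosome proteins outside the naming rule, Rack1, a scaffold on the 40S head (0.83, adjusted p = 0.00329, edgeR), was called higher with both cKO groups averaged. Rps27l, a p53 target (-0.88, adjusted p = 0.00439, edgeR), Fau, which encodes a 40S protein fused to a ubiquitin-like domain (-0.61, adjusted p = 0.0332, edgeR), and Rpl36al, a copy of Rpl36a (-0.58, adjusted p = 0.0135, edgeR), were called lower. Fau was not called in P4M clones (-0.30, adjusted p = 0.382, edgeR), and its averaged call was lost in 4 of the 14 fits that each left out a clone, among them that without Fgfr3-WT clone 4 (adjusted p = 0.13, edgeR). Rps27l lay at 52.0 to 178 CPM in Fgfr3-WT and at 51.9 to 72.8 CPM in cKO clones, and Fgfr3-WT clone 1 lay within the cKO range.

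A list of 18 other genes with TOP mRNAs held mostly translation factors, and also Npm1, Hnrnpa1, Tpt1, Naca and Btf3. Of these 18 genes, 10 were called higher and 1 lower with both cKO groups averaged, with a median log2 fold change of 0.44. Of all genes, 48.8% were called in this comparison, 23.1% higher and 25.7% lower. The largest increase was that of Npm1, a nucleolar chaperone (1.07, adjusted p = 6.4e-05, edgeR), and Eif4a2, an initiation helicase, was called lower (-1.04, adjusted p = 0.000172, edgeR). Of 12 regulators of mTOR and TOP translation, 5 were called higher, with Eif4ebp1, a translation repressor, at 1.20 (adjusted p = 0.00224, edgeR). Of 8 ribosomal protein chaperones, 3 were called higher and 1 lower, among them Heatr3 (1.03) and Bccip (-0.60), a share near that of all genes. Of 78 mitochondrial ribosomal protein genes, 24 were called higher and 13 lower, with a median of -0.04, also near the share of all genes, and the called genes ran from Mrps6 at -1.24 to Mrps30 at 0.95.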

How the data were processed

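RNA of 14 clones was amplified with SMART-Seq v4 and sequenced for 50 single-end cycles. Per the labels, the authors used FastQC, TopHat, Bowtie2, HTSeq and DESeq2 with mm10. The deposited values are a count per gene and TPM, and the program behind the TPM is not given in the sources used here. The deposited expected counts equalled the counts for genes that had both. They served for the marker sums and for genes without an entry among the counts, such as Rpl10l. Members and gene lists were chosen with earlier results of these data known. Counts were tested with edgeR 4.0.16 (filterByExpr, TMM, quasi-likelihood, all 3 groups in one model, Benjamini-Hochberg over 17358 genes). CPM are TMM-normalized. Alternatives used DESeq2 1.42.0, limma 3.58.1 on log2(TPM + 1) with a pseudocount of 1, other scalings and filters, and fits without 1 clone. Only the main edgeR fit was tested on simulated counts. Named were paralogs with their main copies, stalk and MDM2-related genes, Rps6, Rps19 and Rpl39, the 3 called members with the largest differences each way per comparison, the 3 highest and lowest by TPM, and other ribosome proteins with the extreme called gene of each outside list. Coordinates are GENCODE gene bounds on GRCm38 (mm10). Precision follows from 25688946 to 52857424 counts per clone, where 3 counts equal 0.0568 to 0.117 CPM. Results on some genes are not reported here.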

Additional observations from a re-analysis of the deposited data

Results flagged for a closer look

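Single clones stood apart from their group by Dixon's criterion in 6 of 110 groups examined, where chance alone gives about 5%. In Fgfr3-WT clone 4, Rpl36a lay at 457 CPM (183 to 238 in the others), Rps4x at 1695 CPM (576 to 871 in the others) and Rps4l at 3.61 CPM (0 to 0.0792 in the others). Rpl39l lay at 34.1 CPM in P28 clone 5 (0 to 0.0478 in the others), and Rpsa at 2255 CPM in P28 clone 2 (1708 to 1822 in the others). Rps4l lay at 0.0376 CPM in P4M clone 4, which is 2 counts, and at 0 in the other P4M clones.

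The effects in P4M and P28 clones, both taken against the same Fgfr3-WT clones, differed for 3 members. This is the comparison of P4M with P28 clones given above, not a further test. The calls were lost in 8 (Rpl14), 8 (Rpl5) and 6 (Rps4l) of 14 fits without 1 clone. The differences on the log2 scale were 0.62 for Rpl14 (adjusted p = 0.0473, edgeR), 0.67 for Rpl5 (adjusted p = 0.038, edgeR) and -10.61 for Rps4l (adjusted p = 0.0333, edgeR), the last a fitted value against near-zero counts and no bound.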

How the results depend on the processing

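Of 109 called differences of named genes, 68 stayed called under every alternative and 76 in every fit without 1 clone. Against Fgfr3-WT, members called in P28 clones numbered 19, but 31 relative to the members' own sum, 36 with limma on log2(TPM + 1) and 4 when a log2 difference of 1 or more either way was required. That last limit gave 11 instead of 37 in P4M clones and 5 instead of 33 with both cKO groups averaged. Between P4M and P28 clones, 3 members were called, but 14 with DESeq2, 22 on the cKO clones alone, and 1 without scaling, relative to the members' own sum, without a filter, with at least 10 counts in every clone, or with a log2 limit of 1. Limma on log2(TPM + 1) called 0 there (10 at an unadjusted p under 0.05). The cause was not tested. Without 1 clone, the counts were 17 to 24 in P28 against Fgfr3-WT, 27 (without P4M clone 2) to 42 in P4M against Fgfr3-WT, 27 to 34 with both cKO groups averaged, and 0 to 12 between the cKO groups. Mean shares of counts were 3.56 to 4.08% in Fgfr3-WT, 3.97 to 4.50% in P28 and 4.999 to 5.33% in P4M clones without 1 clone, and as TPM they were 12.6, 15.0 and 16.6%. Reversed were Rpl5 (0.48) and Rpl7 (0.34) in P28 against Fgfr3-WT with limma on log2(TPM + 1), and Rpl7l1 (-0.0751) in P4M against Fgfr3-WT relative to the members' own sum. No paired analysis was possible because the labels give no shared replicate numbers. Shared windows limit what counts of single members can show, and low counts limit Rpl32l, Rps12l1 and Rps4l.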

Other observations

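The snoRNA host genes, non-coding transcripts that also carry TOP tracts, differed between the cKO groups. Of 7, 6 were called higher in P4M than in P28 clones (edgeR), where 3.34% of all genes were called higher, with a median log2 fold change of 1.38, beside 0.34 for the core ribosomal protein genes. Snhg12 had 38.8, 31.8, 21.9, 28.6 and 32.5 CPM in P28 and 72.6, 75.5, 44.2 and 102 CPM in P4M clones, without overlap (1.26 ± 0.300 (SE), adjusted p = 0.0267, edgeR), and its call was lost in 4 of 14 fits without 1 clone. Snhg6, named after its values were seen, had 12.7, 15.6, 10.6, 8.97 and 10.3 CPM in P28 and 37.3, 33.8, 24.2 and 43.0 CPM in P4M clones, also without overlap (1.57 ± 0.224 (SE), adjusted p = 0.00365, edgeR). It lay at 8.19 to 14.8 CPM in Fgfr3-WT clones.

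With both cKO groups averaged against Fgfr3-WT, genes with short annotated transcripts gave lower values. Length here is that of a gene's longest annotated transcript, which need not be the expressed transcript. The 17 core genes with a length under 800 bases had a median log2 fold change of -0.18, and 140 other coding genes of that length had -0.23. For 800 to 1200 bases the medians were 0.23 over 27 core genes and -0.18 over 352 others. Across the 77 core genes, which share clones and scaling, Pearson r between log2 length and log2 fold change was 0.20. In P4M against P28 clones this r was -0.015, and the core medians were 0.33 under 800 and 0.36 for 800 to 1200 bases.

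Of 131 ribosomal protein pseudogenes tested, 21 were called higher and 46 lower with both cKO groups averaged, where 23.1% and 25.7% of all genes were called higher and lower (edgeR).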
